A study of Drosophila melanogaster with 16 samples.

Results

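The genes described here encode the proteins of the mitochondrial ribosome. They were chosen by symbol: every gene whose name in the deposited tables begins with mRpL or mRpS and a number was taken. The rule found 72 genes among the 9977 genes of the count table, of which 46 are named for the large subunit and 26 for the small subunit. The levels come from S2 cells, a line derived from Drosophila embryos with features of hemocytes, the blood cells of the fly. The cells were soaked either with 40 µg/ml of dsRNA against imp, which encodes an RNA-binding protein with KH domains, or with the same amount of dsRNA against firefly luciferase, a gene that flies lack. Both treatments were renewed daily, and poly(A) RNA was sequenced on day 3 in 3 libraries per treatment. Each of the 3 imp dsRNA libraries has a luciferase dsRNA library of the same number, taken to be from the same experiment day. Such a couple is called a pair below.

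Mitochondria keep a genome of their own, which in animals encodes ribosomal RNAs, transfer RNAs and a few core subunits of the respiratory chain and of ATP synthase. Its messages are translated inside the organelle by a dedicated ribosome. The RNA of that ribosome is made in the mitochondrion, whereas its proteins are encoded in the nucleus, translated in the cytosol and imported. Some of these proteins have counterparts in bacterial ribosomes and carry the bacterial number, and others are found only in mitochondria. Some genes of this ribosome that carry other symbols, and are not among the 72, are known from fly mutants: technical knockout (tko), which encodes mitochondrial S12, gives seizures when mutated, and bonsai, which encodes mitochondrial S15, is needed for growth.

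The libraries held between 1081882 and 5463535 counts, and imp dsRNA replicate 2 was the shallowest. The member genes were of intermediate depth, with a median of 29.5 counts per gene in that library and of 179.5 in imp dsRNA replicate 1, the deepest, and the lowest count of any member in any library was 7. Imp itself, the target of the dsRNA, stood at 233, 324 and 455 CPM (counts scaled to the library size by the TMM method) in the imp dsRNA libraries and at 660, 738 and 814 in the luciferase dsRNA libraries. The groups did not overlap for Imp, and its fitted log2 fold change was -1.18 (SE 0.18), yet its adjusted p was 0.113 (edgeR's quasi-likelihood test, adjusted by Benjamini and Hochberg's method over 6526 genes). Imp passed that threshold with no filter on low counts (adjusted p = 2.98e-06 by edgeR), with DESeq2 (adjusted p = 0.00018) and without replicate 3 (adjusted p = 1.57e-12 by edgeR), and over the other 6 alternatives its adjusted p ran from 0.127 to 1.00. Of 8 hemocyte markers listed for S2 cells, 7 were in the table and none was at 0 in all libraries. Their summed level ran from 1965 to 2085 CPM after luciferase dsRNA and from 2334 to 3460 CPM after imp dsRNA, with the collagen gene vkg as the largest contributor, and its part in the results below was not tested. Mean levels after luciferase dsRNA were 1223 CPM for vkg, 660 for srp, 78.6 for Pxn and 22.9 for Sr-CI. Those of eater, He and Hml were 9.62, 8.01 and 4.77 CPM, below the means of the neuron markers elav (59.0 CPM) and brp (45.5 CPM). Luciferase dsRNA replicates 1 to 3 held 5, 21 and 120 counts of Sr-CI and 17, 8 and 40 counts of eater. The means of both genes therefore rest largely on replicate 3. The neuron markers elav and brp summed to between 87.6 and 118 CPM after luciferase dsRNA and between 92.0 and 126 CPM after imp dsRNA. The summed levels of muscle, germline, fat body and gut markers stayed at or below 14.9 CPM in every library.

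All 72 genes had enough counts to be tested. Their annotated transcripts were short, with a median length of 778.5 nt (range 327 to 2078 nt) against a median of 2124.5 nt over the tested genes that have an annotated length. They had a median of 2 exons, and 9 of them have a single exon. The genes were scattered, with 20 on chromosome arm 3R, 17 on 3L, 12 on 2L, 12 on 2R and 11 on X. Only 3 neighbouring couples lay within 100 kb of each other, the closest being mRpL3 and mRpS30 on X, 23.4 kb apart in the BDGP6 annotation. Of the members, 41 overlap an annotated gene on the opposite strand, which strand-specific counting separates. Of all members, 3 (mRpL13, mRpL53 and mRpS14) share exonic sequence with a gene on the same strand, and reads that overlap more than 1 gene were left out by the counting rule.

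In luciferase dsRNA cells the mitochondrial ribosomal protein genes stood above the middle of all tested genes per kilobase of transcript, but over a wide range. Before division by transcript length their median was 33.2 CPM, against 47.1 CPM over all tested genes. Per kilobase of transcript, the median member stood at 42.7 CPM, with quartiles at 27.7 and 59.1 CPM per kilobase, and the median over all tested genes was 21.2 CPM per kilobase. Of all tested genes, 70.5% had a lower level per kilobase than the median member. The medians of the subunits were close together, at 41.1 CPM per kilobase for the large and 45.3 for the small subunit. The 42 members with a bacterial number and the 30 with a number found only in mitochondria had medians of 44.0 and 42.7 CPM per kilobase.

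The highest means per kilobase were those of mRpL33 (FBgn0040907, chrX:4321764-4322231) and mRpL12 (FBgn0011787, chr3L:8956791-8957584). L33 is a small protein of the large subunit. L12 forms the flexible stalk that contacts translation factors, and the fly gene is known as a growth regulator. For mRpL33 the luciferase dsRNA libraries gave 244, 132 and 159 CPM per kilobase, a mean of 178 ± 58.1 (SD, n = 3). For mRpL12 they gave 212, 163 and 148, a mean of 174 ± 33.4. The ranges of these genes overlapped widely, so their order is not resolved. The small subunit protein gene mRpS9 came next at 121 ± 20.3 CPM per kilobase, with libraries at 142, 119 and 102, all below those of mRpL12. It was followed by mRpL55 at 106 ± 18.2, mRpL30 at 98.7 ± 30.3 and mRpS26 at 85.5 ± 11.5 CPM per kilobase. From mRpS9 to mRpS26 each mean differed from the next by less than the larger of their SDs. mRpL55 encodes a protein of animal mitochondrial ribosomes that the fly needs for development, L30 has a bacterial counterpart, and S26 is found only in mitochondria.

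At the lower end stood mRpL17 (FBgn0035122, chr3L:264779-265932), whose bacterial counterpart lies near the exit of the peptide tunnel. Its luciferase dsRNA libraries gave 16.0, 11.4 and 11.1 CPM per kilobase, a mean of 12.8 ± 2.71. mRpS2 followed at 14.9 ± 1.68, mRpL53 at 16.8 ± 3.61, mRpL34 at 17.9 ± 5.37, mRpS29 at 20.6 ± 6.40 CPM per kilobase. For mRpL17 the divisor was the longest coding transcript, of 1092 nt, of which 528 nt are coding. Part of the mRpL53 reads may be missing, because it shares exonic sequence with CG33155 on the same strand and shared reads were not counted. mRpS6 was the most uneven of the low members, at 33.0, 17.9 and 9.30 CPM per kilobase around a mean of 20.1. These 6 overlapped from one neighbour to the next, but all of their libraries lay below every library of the 6 highest members. The highest and the lowest member were thus more than 10 times apart, although they encode parts of the same particle. For mRpL33, the highest, the divisor was a short transcript of 349 nt, and how far this affects its level per kilobase was not tested. S29, a GTP-binding protein also known in mammals as DAP3, stands among the lowest transcripts, and S6 is the neighbour of S18 in the bacterial small subunit.

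**Figure D1:**
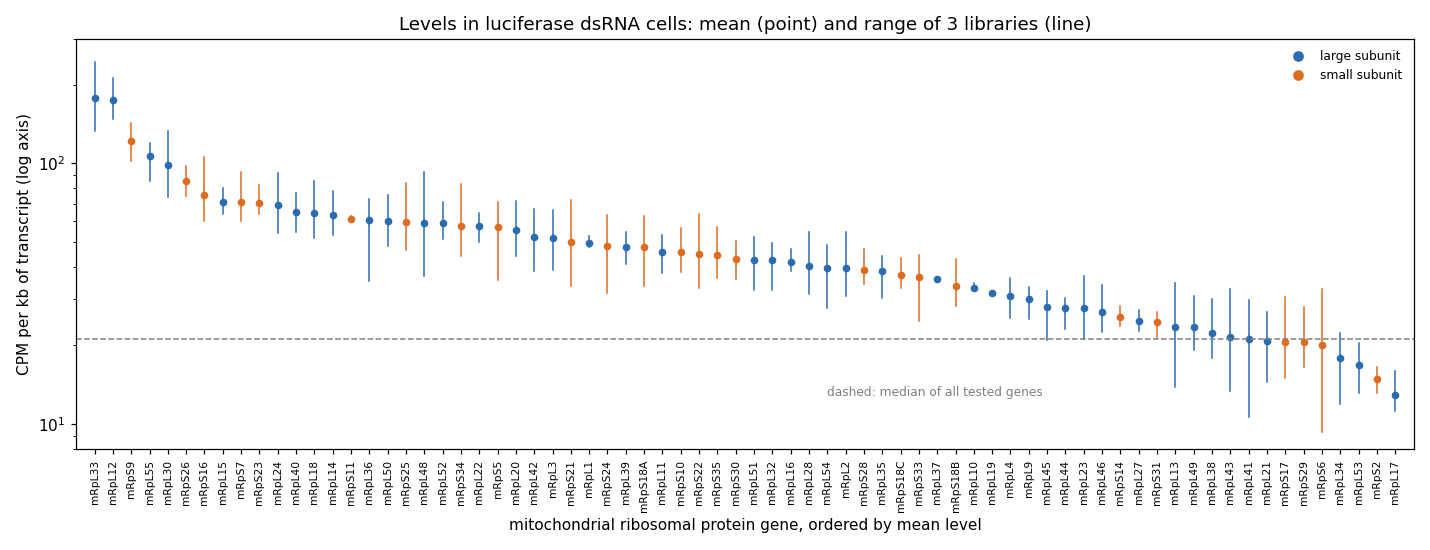
Level of each of the 72 mitochondrial ribosomal protein genes in luciferase dsRNA cells, in TMM-scaled CPM per kilobase of transcript on a log axis. Points are means and lines span the 3 libraries, blue for the large and orange for the small subunit, and the dashed line is the median of all tested genes (21.2 CPM per kilobase). The levels descend gradually from mRpL33 (178) to mRpL17 (12.8), with both subunits spread over the whole order.

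After imp dsRNA none of the 72 genes changed beyond the adjusted threshold. edgeR's quasi-likelihood test with the pair as a block called 0 members and 0 of the 6526 genes tested (percent called: 0) at an adjusted p under 0.05, and the lowest adjusted p of a member was 0.999. DESeq2 and limma-voom also called 0 members, where they called 0.0104% and 0% of all genes. DESeq2 was run with no filter on low counts, so its shares are over 9596 genes. At an unadjusted p under 0.05 there were 6 members by edgeR (8.33% of 72, against a background of 2.88% of all genes tested), 6 by limma-voom (background 3.02%) and 0 by DESeq2 (background 0.688%). All 6 members found by edgeR were lower after imp dsRNA, where the background for lower genes was 1.26%. Fitted values were lower after imp dsRNA for 51 members and higher for 21, and over all tested genes 51.5% were lower. The median fitted log2 fold change of the members was -0.14, within a range from -0.61 to 0.36, beside -0.01 for all tested genes. Without replicate 1 the median of the members turned to 0.03, and of 6 members at an unadjusted p under 0.05 in that fit (background 4.48%) 5 were higher after imp dsRNA and 1 lower. Without replicate 3 the median was -0.27 with 20 members at an unadjusted p under 0.05 (27.8%, against 12.9% of all genes in that fit). The count was 2 without replicate 2 (background 1.19%) and 2 without the replicate block (background 1.1%). The adjusted threshold was passed by 0 members in each of these fits, and by 0.878% of all genes without replicate 3 and 0.0417% with no filter on low counts.

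Values of the subunits are given side by side, with no test of a difference between them. Of the large subunit members, 32 of 46 were fitted lower after imp dsRNA, with a median log2 fold change of -0.13. Of the small subunit members, 19 of 26 were fitted lower, with a median of -0.17. Members with a bacterial number had a median of -0.10 (29 of 42 lower) and those with a mitochondrial number one of -0.16 (22 of 30 lower). The symbol does not always give the subunit: in mammals the products of the genes for S18A and S30 sit in the large subunit. In bulk RNA of this kind, fewer cells of a sort and less RNA per cell cannot be told apart.

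**Figure D2:**
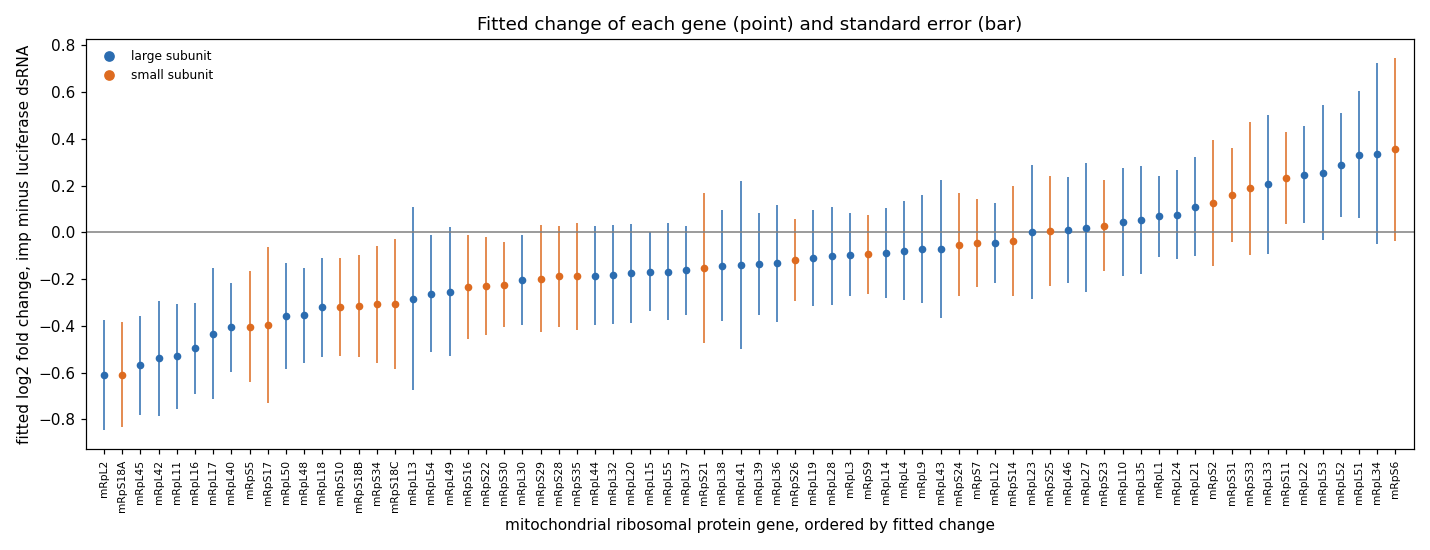
Fitted log2 fold change (imp dsRNA minus luciferase dsRNA, edgeR with the pair as a block) of the 72 genes in ascending order, with standard errors as bars, blue for the large and orange for the small subunit. Of the points, 51 lie below the line at 0 and 21 above it, from -0.61 to 0.36, and no gene passed the adjusted threshold.

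Among the members with lower fitted values, 5 had the smallest unadjusted p. mRpS18A (FBgn0051450, chr3R:8561917-8562593) encodes a form of S18. It stood at 23.6, 12.6 and 18.0 CPM in imp dsRNA replicates 1 to 3 and at 36.3, 19.7 and 26.8 CPM in the luciferase dsRNA libraries. Every imp dsRNA library was below its partner, by similar log2 ratios of -0.60, -0.60 and -0.54, although the groups overlapped because the level itself differed between days. The fitted log2 fold change was -0.61 (SE 0.22, unadjusted p = 0.0177, adjusted p = 0.999 by edgeR), and 5 of 9 alternatives, most of them refits of the same libraries, gave an unadjusted p under 0.05. By edgeR the unadjusted p was 0.083 without replicate 1, 0.0809 without replicate 2 and 0.105 without the replicate block. By DESeq2 it was 0.113.

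mRpL45 (FBgn0263863, chr3R:22618492-22619826) encodes a protein found only in mitochondrial ribosomes, placed near the tunnel exit in mammals. It stood at 26.0, 21.7 and 24.3 CPM after imp dsRNA and at 41.1, 26.5 and 38.9 CPM after luciferase dsRNA. All imp dsRNA libraries were below all luciferase dsRNA libraries, by a narrow gap between imp dsRNA replicate 1 and luciferase dsRNA replicate 2. The fitted log2 fold change was -0.57 (SE 0.21, unadjusted p = 0.0186 by edgeR's test fitted across all genes).

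mRpL16 (FBgn0023519, chrX:1890256-1891482), whose bacterial counterpart lies beside the site where transfer RNA enters, also had groups that did not overlap. It stood at 34.1, 27.1 and 35.3 CPM after imp dsRNA and at 50.5, 41.4 and 43.3 CPM after luciferase dsRNA. The fitted log2 fold change was -0.50 (SE 0.19, unadjusted p = 0.0241 by edgeR). These were the only 2 members with every imp dsRNA library below every luciferase dsRNA library, where 3.39% of all tested genes had that order.

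mRpL2 (FBgn0036135, chr3L:11120847-11122041) encodes the counterpart of bacterial L2, which binds ribosomal RNA close to the peptidyl transferase centre. It stood at 27.2, 32.5 and 22.7 CPM after imp dsRNA and at 56.7, 32.1 and 34.1 CPM after luciferase dsRNA. Pair 2 showed almost no difference, and luciferase dsRNA replicate 1 stood far above the other libraries. The fitted log2 fold change was -0.61 (SE 0.24, unadjusted p = 0.0225 by edgeR). It was -0.28 without replicate 1 (unadjusted p = 0.339 by edgeR) and -0.86 without replicate 2.

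mRpL11 (FBgn0038234, chr3R:14511838-14512691) belongs to the base of the stalk on which translation factors act. It stood at 28.5, 17.2 and 23.5 CPM after imp dsRNA and at 38.9, 34.2 and 27.7 CPM after luciferase dsRNA. It was lower in every pair, most in pair 2, and the groups overlapped by 1 library on each side. The fitted log2 fold change was -0.53 (SE 0.22, unadjusted p = 0.0338 by edgeR), and without replicate 2 it was -0.36 (unadjusted p = 0.285). The 6th member past the unadjusted threshold, named here after its values were seen, was the mitochondria-specific mRpL42 (fitted log2 fold change -0.54, SE 0.25, unadjusted p = 0.0474 by edgeR), which was lower in pairs 1 and 2 and higher in pair 3.

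Among the members with higher fitted values, none reached an unadjusted p under 0.05, and the 5 of smallest p were higher after imp dsRNA in pairs 2 and 3. mRpL52 (FBgn0033208), a mitochondria-specific protein gene, stood at 34.4, 42.4 and 47.9 CPM after imp dsRNA and at 39.6, 28.5 and 30.7 CPM after luciferase dsRNA. Pair 1 went down and pairs 2 and 3 up, and the groups overlapped. The fitted log2 fold change was 0.29 (SE 0.22, unadjusted p = 0.215 by edgeR), and it ran from 0.11 without replicate 3 to 0.60 without replicate 1 (unadjusted p = 0.0303).

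mRpL51 (FBgn0032053) stood at 28.1, 28.9 and 49.4 CPM after imp dsRNA and at 32.7, 26.9 and 20.4 CPM after luciferase dsRNA, for a fitted log2 fold change of 0.33 (SE 0.27). mRpS6 (FBgn0035534) stood at 13.9, 14.4 and 24.3 CPM after imp dsRNA and at 20.7, 11.2 and 5.84 CPM after luciferase dsRNA, for 0.36 (SE 0.39). Both were lower in pair 1 and much higher in pair 3, and without replicate 3 their fitted values turned to -0.10 and -0.28. L51 is another mitochondria-specific protein.

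mRpL22 (FBgn0030786) encodes the counterpart of a bacterial protein that lines the peptide tunnel. It stood at 51.4, 74.1 and 80.8 CPM after imp dsRNA and at 62.9, 48.6 and 56.5 CPM after luciferase dsRNA, with a fitted log2 fold change of 0.25 (SE 0.21). That value dropped to 0.09 when either replicate 2 or replicate 3 was left out, and it was 0.55 without replicate 1 (unadjusted p = 0.0202 by edgeR). mRpS11 (FBgn0038474), whose bacterial counterpart is part of the platform of the small subunit, stood at 44.2, 46.1 and 71.4 CPM after imp dsRNA and at 43.6, 45.8 and 44.3 CPM after luciferase dsRNA. Its luciferase dsRNA libraries were nearly equal and a single library, imp dsRNA replicate 3, stood above the rest, with a fitted log2 fold change of 0.23 (SE 0.20) that was 0.02 without replicate 3.

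**Figure D3:**
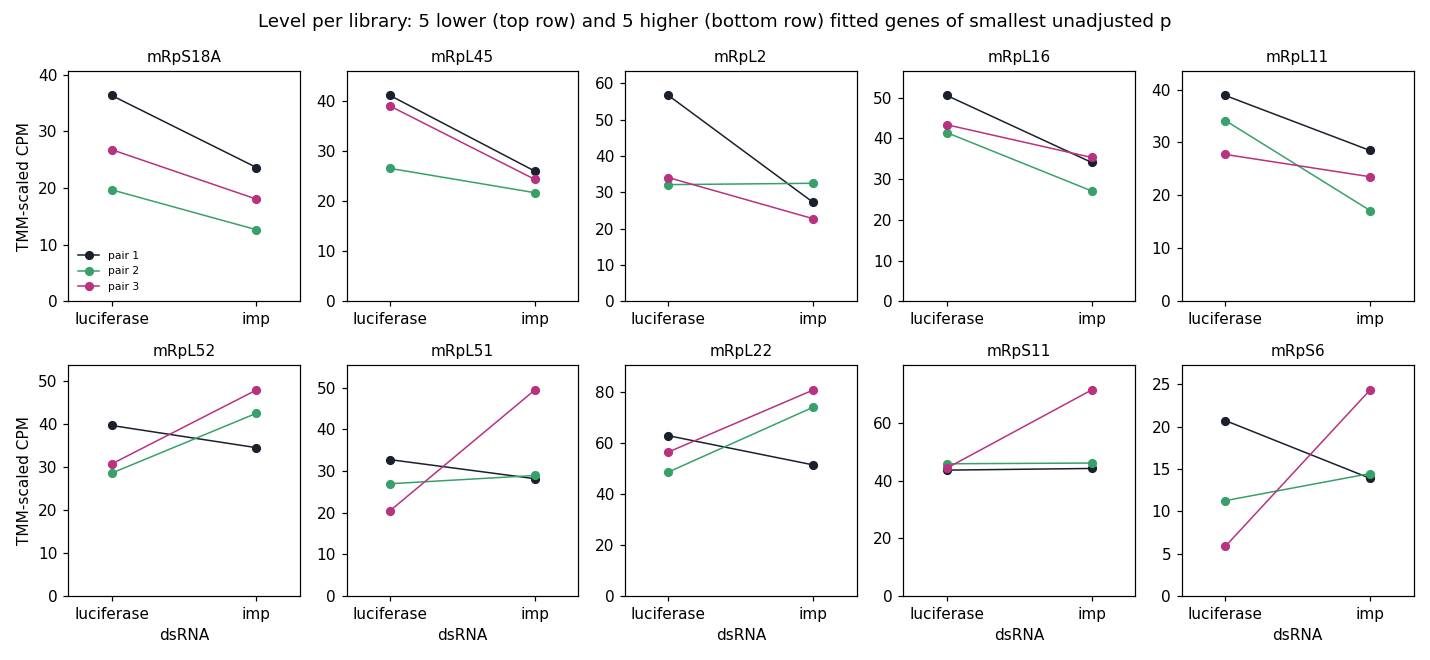
TMM-scaled CPM in each library for the 5 lower (top row) and the 5 higher (bottom row) fitted genes of smallest unadjusted p, with the 2 libraries of a pair joined by a line and each vertical axis starting at 0. Lines of mRpS18A, mRpL45, mRpL16 and mRpL11 slope down in all 3 pairs, and in the bottom row the line of pair 3 slopes up in every panel while that of pair 1 slopes down in all but mRpS11.

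S18 is encoded by 3 lettered genes in the fly, as in mammals. The fitted values of the other 2 forms were also below 0. mRpS18B (FBgn0032849) stood at 29.2, 18.1 and 22.7 CPM after imp dsRNA and at 37.1, 25.7 and 24.3 CPM after luciferase dsRNA, with a fitted log2 fold change of -0.32 (SE 0.22). mRpS18C (FBgn0039765) stood at 17.1, 9.03 and 22.7 CPM after imp dsRNA and at 22.9, 18.5 and 17.5 CPM after luciferase dsRNA, with a fitted log2 fold change of -0.31 (SE 0.28). mRpS18B was below its partner in all pairs, whereas mRpS18C was above it in pair 3. Whether the forms differ from each other in their response was not tested. Per kilobase in luciferase dsRNA cells they stood at 47.5 ± 14.4 CPM for mRpS18A, 33.6 ± 8.09 for mRpS18B and 37.2 ± 5.42 for mRpS18C, values that overlap.

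Members known from work on fly growth and development did not pass the test. mRpL12 stood at 126, 111 and 136 CPM after imp dsRNA and at 156, 120 and 109 CPM after luciferase dsRNA, with a fitted log2 fold change of -0.04 (SE 0.17) that turned to 0.10 without replicate 1. mRpL55 stood at 40.2, 40.6 and 50.2 CPM after imp dsRNA and at 54.5, 51.8 and 38.9 CPM after luciferase dsRNA, with a fitted log2 fold change of -0.17 (SE 0.21). In both genes the groups overlapped, with pair 3 alone higher after imp dsRNA. mRpL33, which has the highest mean per kilobase, stood at 54.6, 45.2 and 142 CPM after imp dsRNA and at 85.0, 46.2 and 55.5 CPM after luciferase dsRNA. Its fitted log2 fold change of 0.21 (SE 0.30) rests on imp dsRNA replicate 3, and without that pair it was -0.41.

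The direction depended on the pair. In pair 1, 12 of the 72 members were higher after imp dsRNA, in pair 2 it was 24, and in pair 3 it was 54. Over all tested genes, the shares higher were 49.7%, 50% and 48.8%. The median log2 ratio of the members (of CPM plus a pseudocount of 1) was -0.35 in pair 1, -0.19 in pair 2 and 0.20 in pair 3, where the medians over all tested genes were 0.00, 0.00 and -0.02. The pair medians were -0.35, -0.19 and 0.18 for the large and -0.35, -0.19 and 0.22 for the small subunit.

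Of the 72 members, 45 were lower in pair 1 and higher in pair 3, where the background was 29.8% of all tested genes. Only 10 members were lower in all 3 pairs (background 12.2%) and 3 were higher in all 3 pairs (background 11.3%). The 10 were mRpL11, mRpL15, mRpL16, mRpL17, mRpL40, mRpL45, mRpS10, mRpS18A, mRpS18B and mRpS28, and the 3 were mRpL1, mRpS11 and mRpS31. mRpS31, singled out after its values were seen, was the only member with every imp dsRNA library above every luciferase dsRNA library (background 2.8%). It stood at 35.3, 34.3 and 36.1 CPM after imp dsRNA and at 33.1, 34.2 and 27.3 CPM after luciferase dsRNA. That gap was a fraction of 1 CPM, and the fitted log2 fold change was 0.16 (SE 0.20). mRpS5, also singled out after its values were seen, ran against the common course. It stood at 61.7, 65.0 and 45.5 CPM after imp dsRNA and 50.5, 90.8 and 101 CPM after luciferase dsRNA. It was higher after imp dsRNA in pair 1 and lower in pair 3. In all, 3 members had that order, the others being mRpL19 and mRpS30, as had 2005 of the 6526 tested genes.

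**Figure D4:**
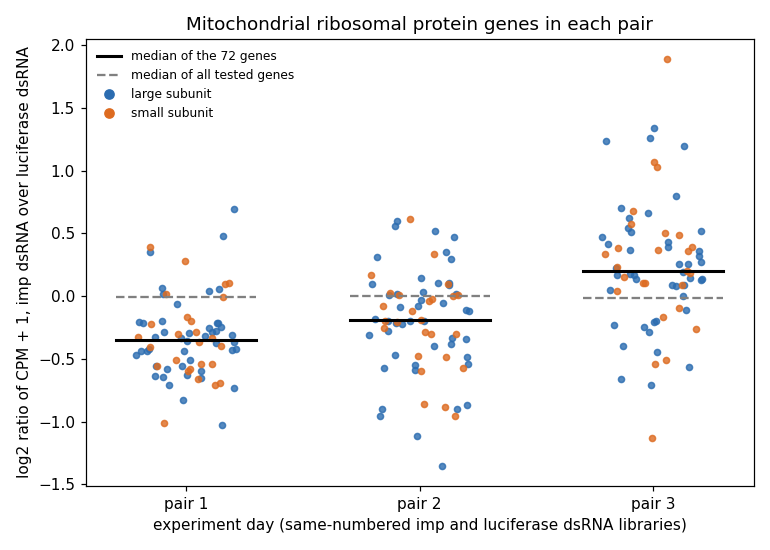
Log2 ratio of CPM + 1 (imp dsRNA over luciferase dsRNA) of each of the 72 genes in the 3 pairs, blue for the large and orange for the small subunit, with the median of the members (black line) and of all tested genes (dashed grey line). The member medians lie at -0.35, -0.19 and 0.20, below the line of all genes in pairs 1 and 2 and above it in pair 3.

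Together the 72 genes held 0.277%, 0.246% and 0.267% of the counts in imp dsRNA replicates 1 to 3, a mean of 0.263 ± 0.0157% (SD, n = 3). They held 0.333%, 0.286% and 0.257% in the luciferase dsRNA libraries, a mean of 0.292 ± 0.0384%. The groups overlapped. On the TMM scale the sums were 2728, 2403 and 2932 CPM after imp dsRNA and 3464, 2682 and 2520 CPM after luciferase dsRNA, giving log2 ratios of -0.34, -0.16 and 0.22 in pairs 1 to 3. For the share of counts the log2 ratios were -0.27, -0.22 and 0.05, so the size of the rise in pair 3 depended on the scaling. Luciferase dsRNA replicate 1 was the highest library for 45 of the 72 members (62.5%), as it was for 27.3% of all tested genes. Imp dsRNA replicate 3 was the highest for 16 members (22.2%), near its share of 18.6% over all tested genes. The lowest library was imp dsRNA replicate 2 for 29 members and luciferase dsRNA replicate 3 for 21. Of the 6526 tested genes, 1347 and 1131 were lowest in these libraries. Within luciferase dsRNA cells the highest library exceeded the lowest by a median factor of 1.55 over the members, against 1.43 over all tested genes, which have higher levels (median 47.1 CPM against 33.2). At like levels, with control means between 26.1 and 48.5 CPM, the median factor was 1.56 over 36 members and 1.41 over 1262 other genes. After imp dsRNA it was 1.39 and 1.40. For comparison, the lowest fitted level after imp dsRNA among the members, that of mRpL2, was 65.5% of its luciferase dsRNA level.

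Genes outside the mitochondrial ribosome took a course that differed with transcript length. Among tested genes that are not members, those with transcripts of up to 600 nt had median log2 ratios of -0.38, -0.22 and 0.35 in pairs 1 to 3. Those from 600 to 1000 nt had -0.28, -0.07 and 0.20, and those over 3500 nt had the opposite course, 0.21, 0.09 and -0.16. The 13 members of up to 600 nt had medians of -0.40, -0.34 and 0.63, and the 37 members from 600 to 1000 nt had -0.33, -0.12 and 0.19. The 20 members from 1000 to 1500 nt had -0.38, -0.13 and 0.09, beside -0.18, -0.06 and 0.09 for other genes of that class. Measured from the median of their length class, the members had a median fitted log2 fold change of -0.07, with 47 lower and 25 higher, and pair medians of -0.08, -0.08 and 0.01. These class limits were chosen after the data were seen. What part transcript length plays in the values of the members was not tested.

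**Figure D5:**
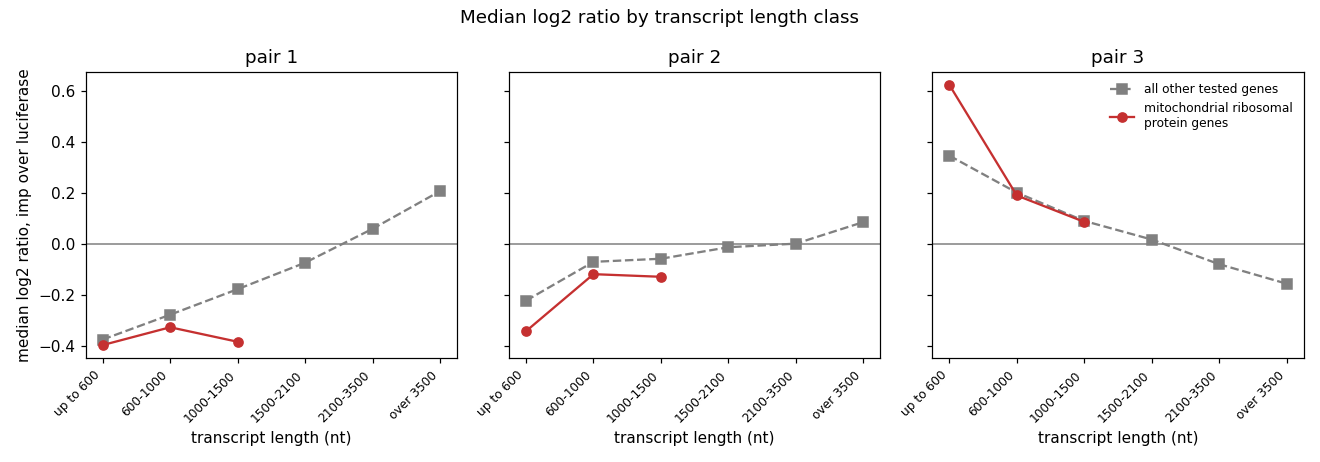
Median log2 ratio (imp dsRNA over luciferase dsRNA) by transcript length class in each pair, for the mitochondrial ribosomal protein genes (red circles; the class of 1500 to 2100 nt, with 2 members, is not drawn) and for all other tested genes (grey squares). In pair 1 the other genes climb from -0.38 to 0.21 with length and in pair 3 they descend from 0.35 to -0.16, and most points of the member genes lie close to theirs, with the widest gaps in the shortest class of pair 3 (0.63 beside 0.35) and the class of 1000 to 1500 nt of pair 1 (-0.38 beside -0.18).

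Other genes of mitochondrial gene expression and energy metabolism were counted in the same fit, and none passed the adjusted threshold there. In the fit without replicate 3, where 0.878% of all genes passed it, so did CG4692, CG9306, Oscp and the cytosolic ribosomal protein gene RpS12. Genes of the lists that are not named were not counted in that fit. The 3 ribosomal protein genes with other symbols were all fitted lower. tko stood at 48.9, 44.3 and 43.1 CPM after imp dsRNA and at 56.3, 49.8 and 47.2 CPM after luciferase dsRNA, below its partner in every pair though the groups overlapped, with a fitted log2 fold change of -0.17 (SE 0.18). Rlc1, listed today as mRpL47, had -0.14 (SE 0.19), and bonsai had -0.09 (SE 0.20).

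Of 9 tested translation factor genes of mitochondria, 8 were fitted lower and 1 higher, with a median log2 fold change of -0.09. The 2 of smallest p were CG12736, an elongation factor Tu (-0.37, SE 0.27), and CG6412, elongation factor Ts (0.12, SE 0.16). Their pair medians were 0.09, -0.01 and -0.22, at a median transcript length of 1711 nt. A list of mitochondrial aminoacyl-tRNA synthetases, enzymes that charge transfer RNAs with amino acids, and their relative Slimp held 15 genes. Of these, 13 were fitted lower and 2 higher, with a median of -0.20. Their pair medians were -0.19, -0.29 and -0.11 at a median transcript length of 2552 nt. The arginyl enzyme CG10092 had a fitted log2 fold change of -0.46 (SE 0.30) and the seryl enzyme Aats-ser one of -0.42 (SE 0.27). CG10092 overlaps mRpS9 on the opposite strand, and mRpS9 itself had -0.09 (SE 0.17).

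Of 10 genes for replication and expression of mitochondrial DNA, 8 were fitted lower and 2 higher, with a median of -0.18. CG5924, the mitochondrial DNA helicase, stood at 10.8, 16.3 and 5.49 CPM after imp dsRNA and at 15.6, 22.5 and 18.0 CPM after luciferase dsRNA. It was below its partner in all pairs, with the groups overlapping between imp dsRNA replicate 2 and luciferase dsRNA replicate 1, and its fitted log2 fold change was -0.76 (SE 0.29, unadjusted p = 0.0214 by edgeR). tam, the catalytic subunit of the mitochondrial DNA polymerase, had -0.36 (SE 0.23).

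Products of the mitochondrial ribosome join nuclear subunits in complex I and ATP synthase. Of 27 tested complex I genes, 22 were fitted lower and 5 higher, with a median of -0.09 and pair medians of -0.44, -0.09 and 0.30. CG9306 had the smallest p of them (-0.58, SE 0.28), followed by CG1970 (-0.29, SE 0.17). CG9306 was at -1.09 without replicate 3 (adjusted p = 6.35e-05 by edgeR) and at -0.05 without replicate 1. Of 12 ATP synthase genes, 6 were lower and 6 higher, with a median of -0.02 and pair medians of -0.53, -0.08 and 0.40, with CG4692 at -0.31 (SE 0.21) and Oscp at -0.36 (SE 0.26). Without replicate 3, CG4692 was at -0.61 (adjusted p = 0.0261 by edgeR) and Oscp at -0.86 (adjusted p = 0.00399 by edgeR), and without replicate 1 they were at 0.02 and 0.09.

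The list of cytosolic ribosomal protein genes, taken by symbol, had 33 higher and 52 lower of 85 tested. The median was -0.05 and the pair medians were -0.51, -0.07 and 0.50. RpS14a was fitted at 0.50 (SE 0.23, unadjusted p = 0.0473 by edgeR) and RpS12 at -0.38 (SE 0.23). Without replicate 3, RpS14a was at 0.25 and RpS12 at -0.72 (adjusted p = 0.0128 by edgeR), and without replicate 1 RpS12 was at -0.07. In luciferase dsRNA cells the median level of this list was 2207 CPM per kilobase, beside 42.7 for the mitochondrial ribosomal protein genes and 94.1 for complex I. RpL7-like, RpL24-like and RpLP0-like, named for likeness to ribosomal proteins and counted among the 85, stood at 122, 374 and 191 CPM per kilobase.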

How the data were processed

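Of the 16 samples of the study, the 6 RNA-seq libraries of dsRNA-treated S2 cells were used. The immunoprecipitation, crosslinking and input samples of the series were not analysed here. The authors aligned the reads to dm3 plus the yeast genome by BWA-PSSM and kept reads with a posterior probability above 0.99. They counted reads overlapping a single gene on the same strand and deposited these counts without normalization. The aligner's version is not given in the sources used here. A further deposited table of the authors' DESeq comparison (group means, fold changes, p-values) served for gene symbols only. The row that names no gene held 0% of the counts.

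edgeR 4.0.16 in R 4.3.3 gave the main test: a quasi-likelihood F test after filterByExpr and TMM scaling, blocked by replicate number, with p-values adjusted over 6526 genes (Benjamini-Hochberg, threshold 0.05). A standard error is the size of the log2 fold change over the root of F. The block leaves 2 residual degrees of freedom. Alternatives were DESeq2 1.42.0, limma-voom (limma 3.58.1), no filter, RLE size factors, at least 10 counts per library, no replicate block and each pair left out. DESeq2 was also run with no filter, so that setting changed both the tool and the gene set. The scripts were tested on simulated data. The replicates were made on different days, and libraries were paired by replicate number. Deviations from the group means correlated at 0.48, 0.39 and 0.29 within pairs 1 to 3 and from -0.54 to 0.14 between numbers. Deviations from a mean of 3 libraries cancel out within a group, which lowers the values between numbers. These correlations alone therefore cannot establish the pairing. No library repeated another (chi-square per degree of freedom from 6.40 to 27.9). Pair ratios used CPM plus 1. Summaries and plots were made in Python 3.11.15 with NumPy 2.4.6, pandas 2.3.3 and matplotlib 3.10.9.

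Positions and lengths (longest coding transcript) were read from BDGP6, which is newer than dm3. There 70 members were found by identifier and 2 (mRpS5 and mRpS34) by symbol. Depth ran from 1081882 to 5463535 counts per library. The members and lists were chosen with earlier results of these data known. Named are Imp, the 5 members of smallest p in each direction, the 6 highest and the 6 lowest per kilobase, lettered copies, genes with known fly phenotypes and the 2 genes of smallest p in each other list. No sequences were printed, and the planned promoter motif search was not run.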

Additional observations from a re-analysis of the deposited data

How the results depend on the processing

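No member passed the adjusted threshold under any of the 9 settings tried beside the reported one. The count of all genes past it was 0 as reported, 4 with no filter and 1 with DESeq2, and ranged from 0 to 58 with each pair left out, the 58 being without replicate 3. The count of members at an unadjusted p under 0.05 was 6 as reported, 2 without the replicate block, 0 with DESeq2, and from 2 to 20 with each pair left out. Without the replicate block the median log2 fold change of the members was -0.11, and no call of a member changed. The median of the members was -0.12 with RLE size factors, -0.11 with DESeq2 and -0.15 with limma-voom, and with each pair left out it ran from -0.27 to 0.03. In all, 57 of 64 alternatives of the summary values kept their direction or stayed within the spread between pairs, and 7 did not. The SD of the pair medians, 0.28, was larger in size than the reported median of -0.14, so this tally cannot show that the direction holds. It counts the turn of the median to 0.03 without replicate 1 as within the spread. Some of the 64 are counts of genes, which have no direction. Of the 72 members, 43 changed sign under at least 1 alternative. Among the named genes those that did had the following ranges of the log2 fold change with each pair left out: mRpL12 from -0.22 to 0.10, mRpL30 from -0.39 to 0.033, mRpL33 from -0.41 to 0.74, mRpL34 from -0.038 to 0.82, mRpL51 from -0.10 to 0.70, mRpL53 from -0.10 to 0.54, mRpL55 from -0.40 to 0.0028, mRpS2 from -0.12 to 0.27, mRpS6 from -0.28 to 1.16, mRpS9 from -0.26 to 0.072, mRpS29 from -0.37 to 0.084, bonsai from -0.24 to 0.037, CG4692 from -0.61 to 0.016 and Oscp from -0.86 to 0.086. A further 2 settings were added after seeing the data: the median was -0.07 relative to transcript length classes and -0.14 without the 3 members that share sequence on the same strand. The cause of these differences was not tested. Imp, CG4692, CG9306, Oscp and RpS12 passed the adjusted threshold under some alternatives, with the values given beside them above. The lowest count of a member was 7, in imp dsRNA replicate 2.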
